A study of Mus musculus with 7 samples.

Results

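The 10 genes described here encode the peroxisome proliferator-activated receptors (PPARs), their obligate partner RXRα, the coactivator PGC-1α, and other nuclear receptors of the liver that work beside them. They were chosen by gene name: Ppara, Ppard, Pparg, Rxra, Ppargc1a, Nr1h3, Nr1i2, Nr1i3, Hnf4a and Esrra, read by 16 non-control probes out of 55681 probes and 36492 gene names on the arrays. Livers of 3 WT and 4 SHIVA mice were hybridized to single-colour Agilent arrays, 1 mouse per array. WT mice were wildtype C57BL/6. SHIVA mice carried a Sox17 mutation on the same C57BL/6 background, a chemically induced germline change of methionine to arginine in the DNA-binding HMG domain. Being in the germline, it was carried by every cell type. The study's genotyping found every viable mutant mouse to be heterozygous, so a normal copy of Sox17 remained. All mice of both groups were female, 8 to 12 weeks old and fasted for 24 h, and no fed liver was among them. Fasting was used to switch on PPARα, and the comparison asks how the transcripts of the receptors themselves stood in mutant livers under that stimulus.

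PPARs, RXRα, LXRα (Nr1h3), PXR (Nr1i2), CAR (Nr1i3), HNF4α and ERRα are transcription factors that bind DNA through a pair of zinc fingers and recruit coactivators when their ligand-binding domain is in the active shape. Most of them bind as heterodimers with RXRα to repeats of a short half-site, whereas HNF4α binds as a homodimer and ERRα can bind alone. In the fasted liver, fatty acids released from adipose tissue activate PPARα, which turns on genes of fatty acid oxidation and ketone body production. PGC-1α is a coactivator that is induced by fasting and docks on PPARα, HNF4α and ERRα.

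The signals of Nr1i3 and Ppara carry the main differences below, so the places their probes read are shown first. Each probe is 60 bases long and the first 30 bases, from the 5′ end, are printed as the array files give them, because the results turn on whether separate probes of a transcript moved alike. The first line of a gene is the brighter probe, on which its gene value rests.
Nr1i3 probe from base 1202 of its transcript: tataaacaatgcatactcctatgaacttca
Nr1i3 probe from base 1070 of its transcript: aagagaagagatagatcagctacaagagga
Ppara probe from base 2273 of its transcript: ctttgaaaacctacaagtcaaggtgtggcc
Ppara probe from base 2697 of its transcript: aaatgctcctctaggcccctcctttggcag
Ppara probe from base 7356 of its transcript: cctgtaagctgatgaatgtaaagagttaat
On build mm9 the Nr1i3 probes lay on the plus strand at chr1:173148765-173148824 and chr1:173147776-173147835, and those of Ppara on the plus strand at chr15:85632110-85632169, chr15:85632534-85632593 and chr15:85637193-85637252. The probes of Nr1i3 do not overlap each other, and neither do those of Ppara. Exon and UTR annotation for mm9 was not used here.

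The 250 bases before the transcription start of both genes were taken from the RefSeq promoter table on build GRCm38.p6, plus strand, because both genes were lower in all SHIVA livers and SHIVA mice carry an altered Sox protein. Capitals mark the letters ATTGTT, the reverse complement of AACAAT, the core that Sox proteins recognise.
Nr1i3, chr1:171213720-171213969: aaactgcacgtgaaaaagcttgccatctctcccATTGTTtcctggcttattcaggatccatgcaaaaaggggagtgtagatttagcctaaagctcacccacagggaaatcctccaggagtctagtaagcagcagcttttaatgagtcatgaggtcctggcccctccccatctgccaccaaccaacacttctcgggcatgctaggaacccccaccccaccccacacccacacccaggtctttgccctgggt
Ppara, chr15:85735526-85735775: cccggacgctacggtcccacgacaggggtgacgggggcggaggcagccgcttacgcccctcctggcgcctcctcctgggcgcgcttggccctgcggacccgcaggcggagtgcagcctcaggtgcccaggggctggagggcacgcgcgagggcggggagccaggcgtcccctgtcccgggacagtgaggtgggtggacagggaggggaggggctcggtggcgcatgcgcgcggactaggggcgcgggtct
These promoters differ in composition, with 53.2% G and C and 2 CG pairs for Nr1i3 against 76.4% and 27 CG pairs for Ppara, where the median over 32817 mouse promoter windows was 52.4% G and C. On both strands, AACAAT occurred in 1 member, Nr1i3, starting 217 bases before the start, and in 9.42% of all windows. The nuclear receptor half-site AGGTCA occurred in promoters of 2 members, Pparg and Rxra, and in 14.03% of all windows. The 10 members have 15 windows, so these counts of members and the shares of windows are unlike measures. A direct repeat of this half-site with 1 base between the copies, the element of PPAR and RXR dimers, occurred in 0 of the 15 member windows and in 0.0335% of all windows. A match is a run of letters and no measure of binding, and no match concerns these windows alone.

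Signals are processed spot intensities, quantile normalized over the 7 arrays and given on the log2 scale, and each gene is read by its brightest probe. Per array, 44.5% to 48.7% of probes exceeded background clearly, by the flag of the scanner software. The filter for testing, a probe clearly over background on 3 or more arrays, kept all 10 genes, and 15 of their 16 probes met it on all 7 arrays. On the 1 slide used, row 1 held WT and row 2 held SHIVA, so genotype and slide row cannot be told apart. The probe for Sox17 itself read 3.41 to 4.52 in WT and 4.46 to 4.76 in SHIVA livers. WT replicate 2, the lowest, was not well above background, so no exact difference is given, and the probe does not distinguish the mutant from the normal transcript.

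Of the 10 genes, 0 passed an adjusted p under 0.05 from limma, against 0.375% of all 20002 genes tested. At an unadjusted p under 0.05, 2 of the 10 passed, Nr1i3 and Ppara, both lower, against 13.3% of all genes (7.24% higher and 6.09% lower). In the same pair of genes every SHIVA liver lay below every WT liver. Groups did not overlap for 12.2% of all genes tested, 6.02% with SHIVA on the lower and 6.14% with SHIVA on the higher side. The log2 fold change, SHIVA minus WT, was negative in 8 of the 10 genes, with a median of -0.11 where the median over all genes was -0.01.

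**Figure D1:**
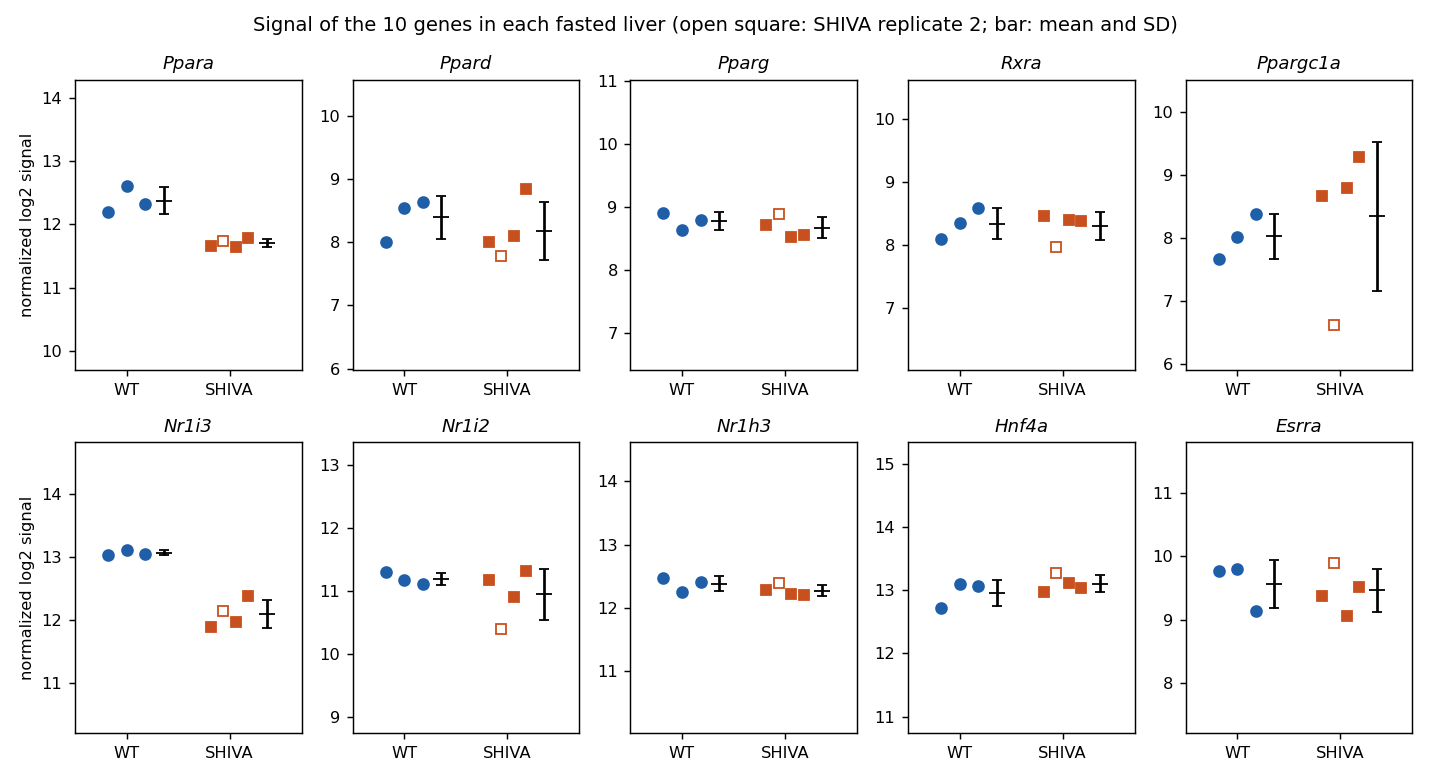
Normalized log2 signal of the 10 genes in each liver, with WT as circles and SHIVA as squares (SHIVA replicate 2 open) and the mean and SD of each group as a bar. Each panel spans the same log2 range around its own centre. Nr1i3 and Ppara have no overlap between groups, and Ppargc1a has the widest SHIVA range, from 6.62 to 9.29.

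Nr1i3 encodes CAR, the constitutive androstane receptor, which senses drugs and bilirubin and whose transcript is known to rise with fasting in mouse liver. Its log2 signal was 13.04, 13.11 and 13.06 in the WT livers and 11.89, 12.15, 11.98 and 12.39 in the SHIVA livers. The WT livers lay within a span of less than 0.1, and the highest SHIVA liver, replicate 4, was still well below them. The signal was 1.96-fold lower in SHIVA livers, or -0.97 as a log2 difference of SHIVA minus WT (standard error, SE, 0.16, 95% interval -1.33 to -0.61). After Benjamini-Hochberg adjustment over all genes this was just short of the threshold, with limma adjusted p = 0.0547. The second probe, upstream in the transcript, read 11.96, 11.78 and 11.77 in WT and 10.65, 10.95, 10.72 and 11.33 in SHIVA livers. Both probes therefore separated the genotypes, and SHIVA replicate 4 was the highest mutant liver on each. The log2 fold change of the second probe was -0.92 (SE 0.19, limma adjusted p = 0.117 over 26258 probes, of which 0.232% were called).

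The call on Nr1i3 depended on the processing. Over 18 alternatives the log2 fold change stayed between -1.09 and -0.89, and its adjusted p ranged from 0.0166 to 0.209. It passed with normexp background correction (limma adjusted p = 0.0223), with the mean signal without background correction (0.0166), with the table of log2 values that the authors deposited (0.0178) and with a filter on all 7 arrays (0.0361). The authors' values ranked spots as the mean signal did, so the mean signal and that table are not separate checks. Array weights (0.0205) and the fit without WT replicate 3 (0.0466) also brought it past the threshold. With any other mouse left out it did not pass, and the adjusted p was 0.209 without WT replicate 2. In bulk liver, fewer cells that make a transcript and less of it per cell cannot be told apart. The 6 hepatocyte markers had list means of 17.19 to 17.28 in WT and 17.07 to 17.30 in SHIVA livers. Of these markers, 4 had a positive and 2 a negative log2 fold change, the most negative being Cyp2e1 at -0.36 (limma adjusted p = 0.279). Whether the share of hepatocytes differed was not tested.

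Ppara encodes PPARα, the main fatty acid sensor of the hepatocyte. It is among the genes that the study's heat map of PPARα-dependent genes picked on these same arrays, so its direction is not independent evidence. By qRT-PCR, a separate measurement, the study reported less Ppara in fed SHIVA mice, a state absent from these arrays. That measurement also covered mice fasted for longer than 24 h, for which the study stated no reduction. In Sox17+/− mice, a different mutant, the study detected no Ppara difference from WT in livers fed or fasted for 24 h. Its log2 signal was 12.19, 12.61 and 12.33 in WT and 11.66, 11.75, 11.64 and 11.78 in SHIVA livers. The 4 mutant livers lay close together, with an SD of 0.07 against 0.21 in WT, and all of them were below the lowest WT liver. The signal was 1.59-fold lower in SHIVA livers, a log2 difference of -0.67 (SE 0.15, 95% interval -1.01 to -0.33, limma adjusted p = 0.132). The probe from base 2697 also separated the groups, with 10.34, 10.78 and 10.33 in WT and 9.72, 9.94, 9.74 and 9.99 in SHIVA livers. It differed by -0.63 (limma adjusted p = 0.193). The probe from base 7356, farthest downstream, read 8.95, 9.58 and 8.75 in WT and 8.47, 9.21, 8.28 and 8.42 in SHIVA livers. There the groups overlapped through SHIVA replicate 2, and the difference was -0.50 (limma adjusted p = 0.50). Over 19 alternatives the difference of Ppara stayed between -0.77 and -0.50, and it passed with array weights (-0.77, limma adjusted p = 0.0378) and with no other setting tried.

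**Figure D2:**
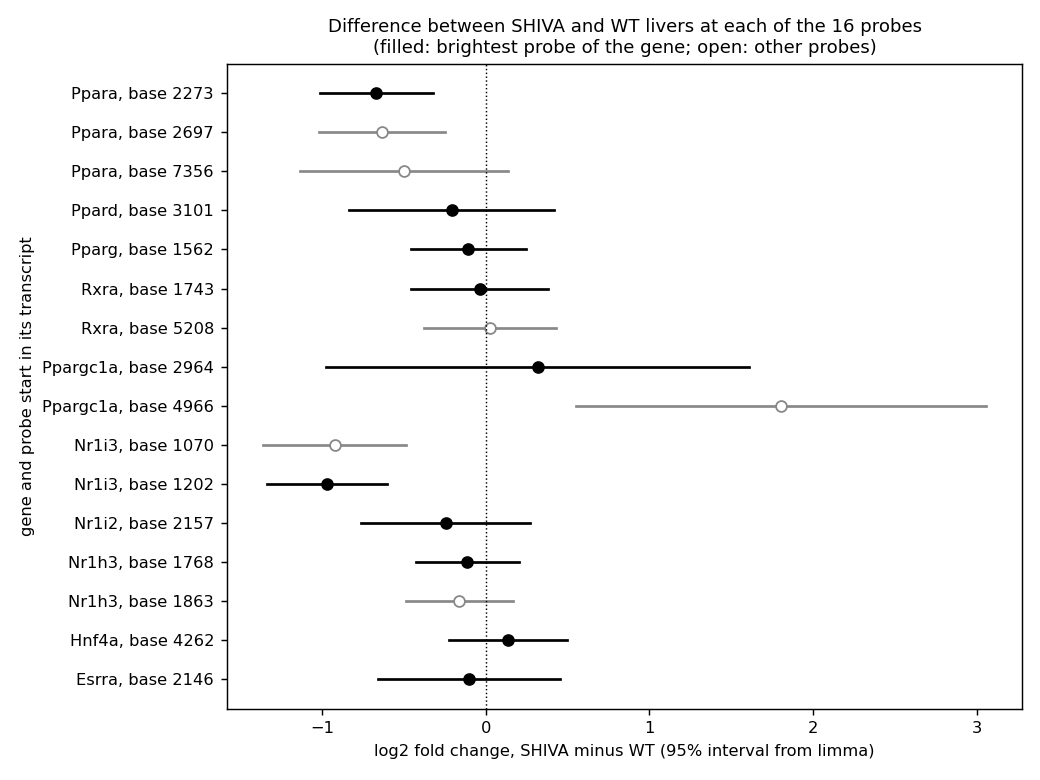
Log2 fold change of SHIVA over WT (x axis) at each of the 16 probes (y axis), with 95% intervals from limma. Filled points are the brightest probe of a gene and open points its other probes. The probes of Nr1i3 lie at -0.97 and -0.92, those of Ppara between -0.67 and -0.50, and those of Ppargc1a at 0.32 and 1.80, the latter against WT signals not well above background.

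The genes whose pattern over the 7 livers was most like that of Ppara, by the root mean square difference of log2 signals after centring, were Ufsp1 (0.0724), Hspb6 (0.0739) and the transcript ENSMUST00000069049 (0.0769). Ufsp1, a protease of the ubiquitin-like modifier UFM1, read 7.32, 7.66 and 7.37 in WT and 6.80 to 6.90 in SHIVA livers. Hspb6, a small heat shock protein, read 9.50, 9.96 and 9.74 in WT and 8.94 to 9.22 in SHIVA livers. Like Ppara, these genes were highest in WT replicate 2 and nearly level among the mutants. For Nr1i3, where the choice was made after its values were seen, the nearest genes were Tmem91 (0.0971), Tmem189 (0.121) and Tnfaip8l1 (0.133).

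The listed targets of PPARα were read in the same livers. Of 31 genes tested, 30 had a negative log2 fold change and 0 passed the adjusted threshold, with a median of -0.67. The study picked some of these genes on the same arrays, so the direction of the list is not independent evidence. In 13 of the 31 all mutants were below all WT livers, against 6.02% of all genes tested. Without WT replicate 3 this held for 24 of the 31, against 14.4% of all genes. With any other mouse left out it held for 13 to 18, against 7.10% to 10.4% of all genes. The most negative were Acot1, a cytosolic acyl-CoA thioesterase (-2.69, limma adjusted p = 0.204), and Cyp4a14, a fatty acid hydroxylase (-2.27, limma adjusted p = 0.164). Cyp4a14 read 16.29, 16.96 and 15.02 in WT and 13.29, 14.67, 12.79 and 14.53 in SHIVA livers. Acot1 overlapped because WT replicate 3, at 9.65, lay within the SHIVA range of 8.48 to 9.71. By qRT-PCR the study instead placed Acot1 among the transcripts that behaved alike in fasted WT and SHIVA livers. It also reported comparable fasting induction in both genotypes for mitochondrial beta-oxidation genes such as Acadm. Acadl, the long-chain acyl-CoA dehydrogenase, was at -0.01 (limma adjusted p = 0.990). The fatty acid transporter Cd36 was the exception in direction, with 7.96, 7.90 and 8.12 in WT and 8.59, 9.14, 8.54 and 8.70 in SHIVA livers (log2 difference 0.75, limma adjusted p = 0.147).

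WT replicate 3 held different places among the WT livers for Ppara and for its listed targets. Its Ppara signal, 12.33, was the middle of the WT values. Its mean over the 31 targets was 11.85, against 12.46 and 12.91 in the other WT livers and 11.54, 11.67, 11.55 and 11.57 in the SHIVA livers. In 24 of the 31 targets WT replicate 3 was the lowest WT liver, a share that was not counted over all genes tested. So in this liver the targets stood nearer to the mutant level than Ppara did, while both were above every mutant. This is a reading of a single liver, and its cause was not tested.

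**Figure D3:**
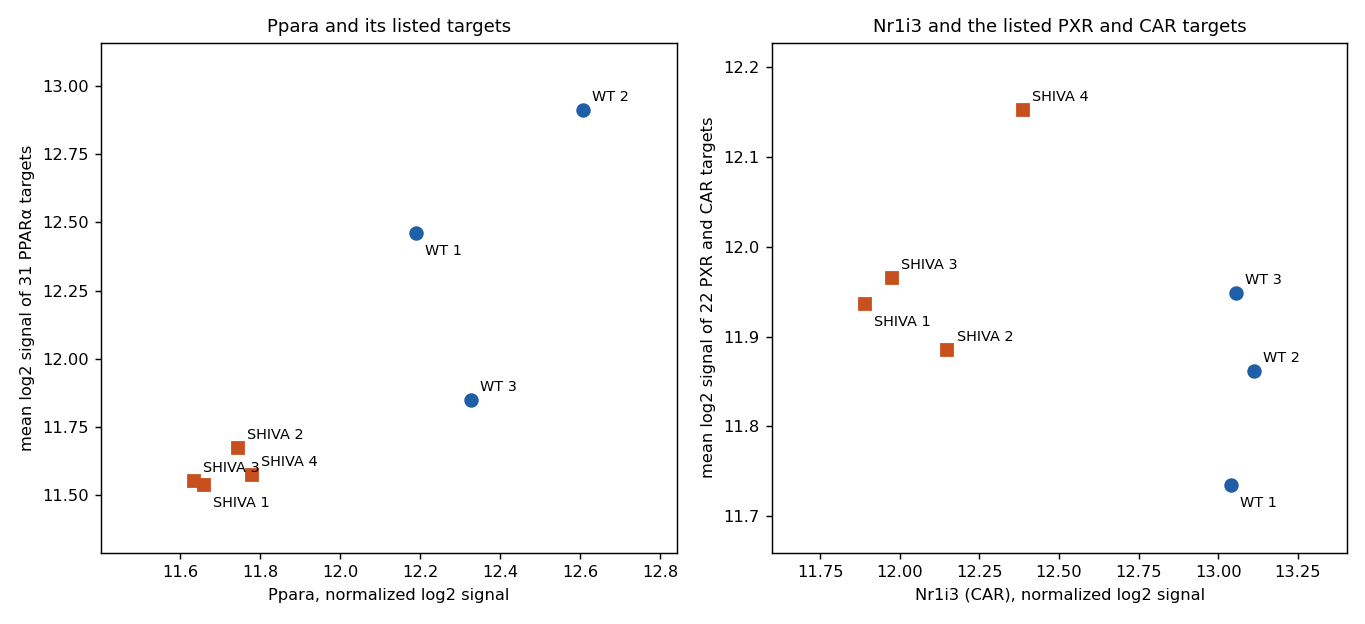
Log2 signal of a receptor gene (x axis) against the mean log2 signal of its listed targets (y axis) in each labelled liver, for Ppara with 31 PPARα targets (left) and Nr1i3 with 22 PXR and CAR targets (right). WT replicate 3 has a Ppara signal of 12.33 with a target mean of 11.85, and the livers with low Nr1i3 have target means of 11.89 to 12.15, overlapping those of WT, 11.73 to 11.95.

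The list means of PXR and CAR targets overlapped between the genotypes, where Nr1i3 did not. These receptors share response elements in genes of drug metabolism, so their targets were taken as 1 list. Of 22 tested, 9 had a positive and 13 a negative log2 fold change, with a median of -0.10. In 6 of the 22 every SHIVA liver lay above every WT liver, against 6.14% of all genes tested. In 2 every SHIVA liver lay below, against 6.02%. Cyp2b10, the cytochrome P450 by which CAR activity is usually read, was at 14.12, 14.44 and 14.24 in WT and 14.03, 14.13, 13.89 and 13.96 in SHIVA livers (log2 difference -0.26, limma adjusted p = 0.482). Cyp3a11, the usual readout of PXR, differed by 0.02 (limma adjusted p = 0.976). The most negative values belonged to the stress-response gene Gadd45b (-0.92, limma adjusted p = 0.257) and to Cyp2c37 (-0.72, limma adjusted p = 0.225).

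Both genes of this list that passed the threshold were higher in SHIVA livers. Akr1b7, an aldose reductase-like enzyme, rose from 6.25, 6.12 and 6.35 in WT to 7.59, 7.78, 7.55 and 8.32 in SHIVA livers (log2 difference 1.57, limma adjusted p = 0.0269). Gsta1, a glutathione transferase, rose from 6.17, 4.88 and 4.84 in WT to 7.49, 7.43, 7.98 and 7.98 in SHIVA livers (log2 difference 2.42, limma adjusted p = 0.0299). Its near-identical relatives could share this probe's signal. In neither gene did the groups overlap. These calls, like those of Lpl, Cyp8b1, Nr1d1 and Crebbp below, were sensitive to single mice: each of the 6 genes kept its sign but was called in 1 to 3 of the 7 leave-one-out fits, and all 6 lost the call without WT replicate 2, SHIVA replicate 1 or SHIVA replicate 3. Over all 7 fits the highest limma adjusted p of these genes was 0.203, for Nr1d1 without WT replicate 1.

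Nr1i2 encodes PXR, the receptor for many drugs and bile acids. Its log2 signal was 11.30, 11.17 and 11.10 in WT and 11.17, 10.39, 10.90 and 11.31 in SHIVA livers. SHIVA replicate 2 was the lowest of all 7 livers and replicate 4 the highest, and the groups overlapped. The difference was -0.24 (SE 0.22, 95% interval -0.75 to 0.27, limma adjusted p = 0.702).

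Ppard and Pparg encode the other PPARs, of which PPARδ is widely expressed and PPARγ is the driver of fat cell formation and of fat storage in steatotic liver. Ppard read 8.00, 8.54 and 8.64 in WT and 8.00, 7.79, 8.11 and 8.84 in SHIVA livers, a log2 difference of -0.21 (SE 0.27, limma adjusted p = 0.793). Pparg read 8.91, 8.63 and 8.80 in WT and 8.72, 8.89, 8.53 and 8.56 in SHIVA livers, a log2 difference of -0.11 (SE 0.15, limma adjusted p = 0.813). In both genes the groups overlapped. The probe of Pparg was printed on 10 spots per array, and 4 of its spots over all arrays were left out as uneven or deviant. Of 5 adipocyte markers 0 were tested, and 1 of them, Adipoq, was well above background on 1 array, a SHIVA array. All 7 Kupffer cell and macrophage markers were tested and had positive log2 fold changes, with 0 called and list means of 9.15 to 10.35 in WT and 9.69 to 10.62 in SHIVA livers. Their part in the signal of Pparg was not tested. List means of endothelial, stellate cell and bile duct markers overlapped between the groups, and 0 of 5 pancreas markers were tested.

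Among 6 listed genes that PPARγ drives in fatty liver, 4 were tested. Lpl, lipoprotein lipase, rose from 7.46, 6.94 and 8.06 in WT to 9.46, 9.95, 9.71 and 9.27 in SHIVA livers (log2 difference 2.11, limma adjusted p = 0.0269). Its second probe gave 2.06. Cidec, a protein of the lipid droplet surface, read 6.77, 7.90 and 3.52 in WT and 3.41, 4.49, 1.74 and 3.43 in SHIVA livers. It was well above background on 2 WT arrays and 1 SHIVA array, so no exact difference is given, and WT replicate 3 lay within the SHIVA range. Macrophages also make Lpl and Fabp4, of which Fabp4 was at 0.81 (limma adjusted p = 0.210), and the part of the macrophage markers above was not tested.

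Rxra encodes the partner that PPARs, LXRα, PXR and CAR need to bind DNA. Its brighter probe read 8.09, 8.34 and 8.57 in WT and 8.46, 7.97, 8.39 and 8.37 in SHIVA livers, a log2 difference of -0.04 (SE 0.18, 95% interval -0.45 to 0.38, limma adjusted p = 0.955). Its other probe differed by 0.03. Neither probe separated the groups, and the sign of so small a difference turned with the probe and with the mice in the fit. The related receptors Rxrb and Rxrg differed by -0.05 (limma adjusted p = 0.915) and -0.23 (limma adjusted p = 0.495).

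Ppargc1a encodes PGC-1α and had the widest spread of the 10 genes among SHIVA livers, with an SD of 1.18. Its brighter probe read 7.68, 8.02 and 8.39 in WT and 8.67, 6.62, 8.80 and 9.29 in SHIVA livers. Of the mutants, 3 were above every WT liver, and replicate 2 was below every WT liver. The difference was 0.32 (SE 0.56, 95% interval -0.97 to 1.61, limma adjusted p = 0.855). This value rested on single mice, at 0.90 (limma adjusted p = 0.228) without SHIVA replicate 2, but 0.0026 without SHIVA replicate 4 and 0.14 without WT replicate 1. Without SHIVA replicate 2 the groups did not overlap, as held for 8.29% of all genes with SHIVA on the higher side in that fit. The other probe, from base 4966, was well above background on 0 of 3 WT and on 4 of 4 SHIVA arrays. It read 4.67, 3.90, 4.86 and 5.10 in SHIVA livers, at least 2.12-fold higher than the background limit of the WT arrays. It met the filter through the SHIVA arrays, where it was high, so no p is given and it adds no separate support to the brighter probe. On this probe too SHIVA replicate 2 was the lowest mutant.

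SHIVA replicate 2 stood apart in genes of the acute phase, the liver's response to inflammation. Over 8 such genes, a list added after the data were seen, its mean log2 signal was 15.02, against 12.61 to 13.36 in the other SHIVA livers and 12.03 to 12.75 in WT. Serum amyloid A, Saa1, read 17.73 in this liver and 11.44 to 13.97 in the others. Of the 10 genes described here, SHIVA replicate 2 was at an end of the mutant range in 8, lowest in Ppard, Rxra, Ppargc1a and Nr1i2 and highest in Pparg, Nr1h3, Hnf4a and Esrra. The corresponding counts for the other mutants were 3, 3 and 6. Within the WT range they were 9, 6 and 5 for WT replicates 1, 2 and 3, so a high count was not particular to SHIVA replicate 2. The part of the acute phase in these values was not tested. Without this liver the log2 fold change of Nr1i2 was -0.06. For Nr1i3 and Ppara this liver lay inside the mutant range, and without it their log2 fold changes were -0.99 and -0.68.

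**Figure D4:**
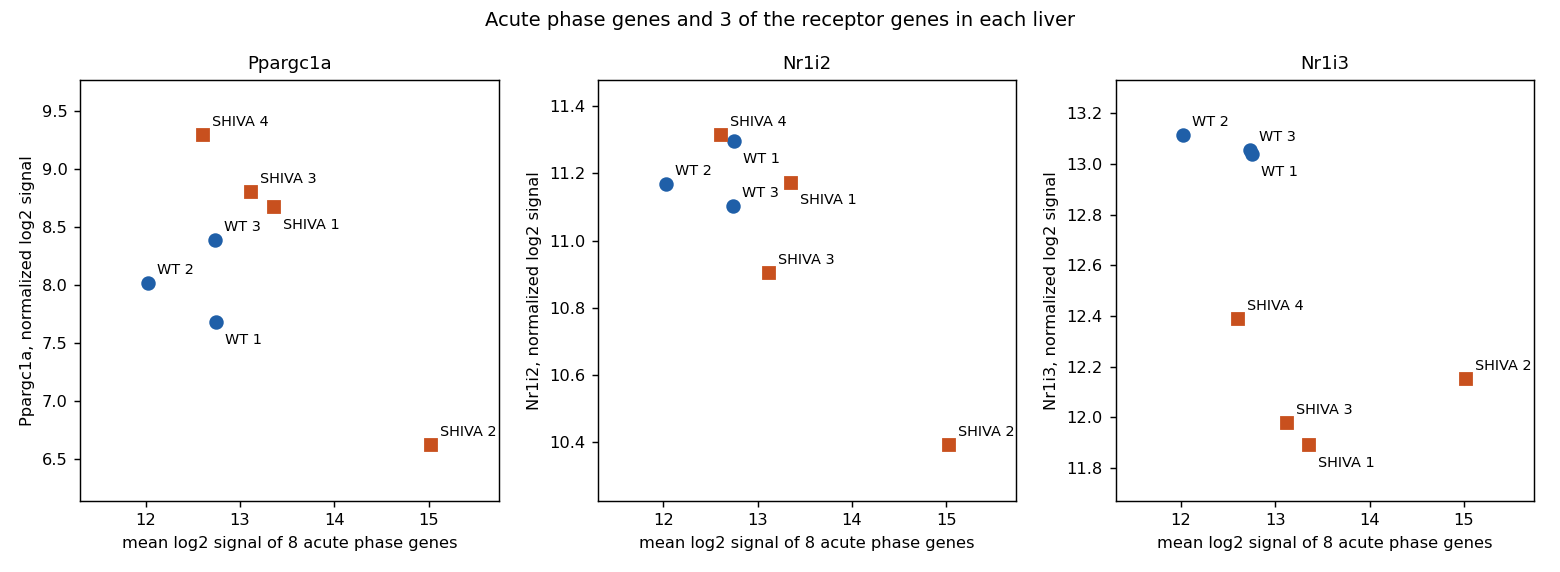
Mean log2 signal of 8 acute phase genes (x axis) against the log2 signal of Ppargc1a, Nr1i2 and Nr1i3 (y axis, 1 panel each) in each labelled liver. SHIVA replicate 2, at 15.02 on the x axis, is the lowest liver for Ppargc1a (6.62) and Nr1i2 (10.39) and lies among the other mutants for Nr1i3 (12.15).

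Esrra encodes ERRα, which drives genes of the mitochondrial respiratory chain together with PGC-1α. It read 9.76, 9.80 and 9.13 in WT and 9.38, 9.89, 9.05 and 9.52 in SHIVA livers, a log2 difference of -0.10 (SE 0.24, limma adjusted p = 0.897), and the groups overlapped. Of 17 listed oxidative targets of ERRα and PGC-1α, 7 were positive and 10 negative, with a median of -0.03 and 0 called. Their ends were the Krebs cycle enzymes Idh3a (-0.40, limma adjusted p = 0.493) and Cs, citrate synthase (-0.37, limma adjusted p = 0.276), and the respiratory genes Atp5b (0.33, limma adjusted p = 0.360) and Ndufs1 (0.24, limma adjusted p = 0.528). All 4 gluconeogenic and amino acid-degrading targets of PGC-1α were positive with 0 called, from G6pc, glucose-6-phosphatase, at 0.16 to Fbp1, fructose-1,6-bisphosphatase, at 0.39 (limma adjusted p = 0.344).

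Nr1h3 encodes LXRα, the receptor for oxysterols. It read 12.48, 12.25 and 12.41 in WT and 12.28, 12.39, 12.21 and 12.21 in SHIVA livers, a log2 difference of -0.11 (SE 0.14, limma adjusted p = 0.774), and its second probe gave -0.16. The groups overlapped on both. Of 11 listed LXR targets, 7 were positive and 4 negative, with a median of 0.52 and 0 called. That median rested on WT replicate 1 and was 0.04 without it. The sterol exporters Abcg5 (0.87, limma adjusted p = 0.195) and Abcg8 (0.77, limma adjusted p = 0.394) were at the upper end, and the phospholipid transfer protein Pltp (-1.08, limma adjusted p = 0.215) and the acyltransferase Lpcat3 (-0.25, limma adjusted p = 0.650) at the lower. Abcg5 read 11.16, 11.58 and 11.90 in WT and 12.28, 12.57, 12.03 and 12.79 in SHIVA livers, with no overlap. In 3 of the 11, Abcg5 among them, every SHIVA liver lay above every WT liver, against 6.14% of all genes tested. In 1, Pltp, every SHIVA liver lay below, against 6.02%.

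Hnf4a encodes HNF4α, which keeps hepatocytes differentiated. It read 12.73, 13.10 and 13.07 in WT and 12.97, 13.28, 13.11 and 13.04 in SHIVA livers, a log2 difference of 0.14 (SE 0.16, limma adjusted p = 0.763), and the groups overlapped. Of 14 listed targets, 3 were positive and 11 negative, with a median of -0.16. That median was -0.012 without WT replicate 2 and -0.27 without WT replicate 1. Cyp8b1, the sterol 12α-hydroxylase that makes cholic acid, fell from 12.47, 12.94 and 12.70 in WT to 10.96, 10.93, 11.30 and 11.40 in SHIVA livers (log2 difference -1.55, limma adjusted p = 0.0220). No mutant liver reached the WT range. Cyp27a1, the enzyme of the alternative bile acid pathway, was next at -0.81 (limma adjusted p = 0.204), and the coagulation factor F7 (0.42, limma adjusted p = 0.522) and the urea cycle enzyme Otc (0.11, limma adjusted p = 0.852) were highest.

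**Figure D5:**
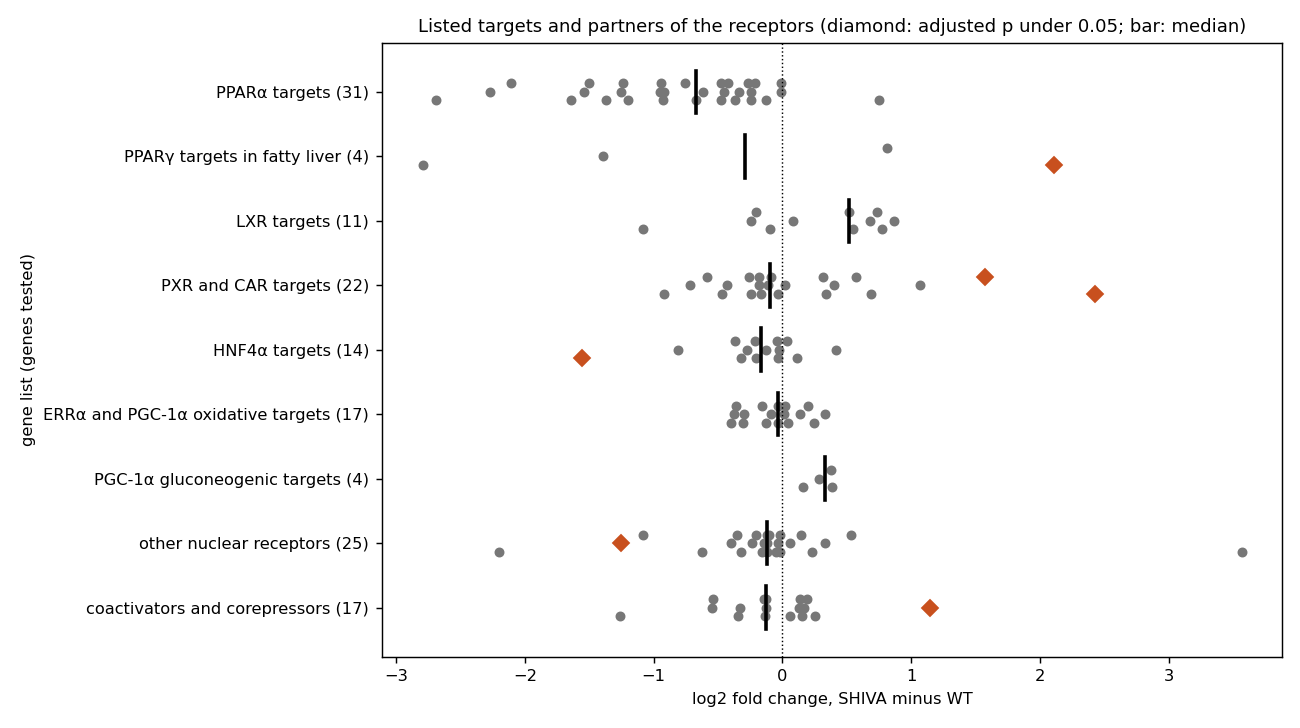
Log2 fold change of SHIVA over WT (x axis) for each tested gene of the lists of targets and partners (y axis, with the number tested). Diamonds are genes with an adjusted p under 0.05 and the bar is the median, which is -0.67 for the PPARα targets and 0.52 for the LXR targets. The points of Cidec and Esrrg, at -2.79 and -2.20, rest in part on signals not well above background.

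Other nuclear receptors on the arrays gave a view of the family around the 10 genes. Of 25 tested, 6 were positive and 19 negative, with a median of -0.12. Nr1d1, the haem-binding clock repressor REV-ERBα, fell from 10.64, 10.23 and 10.57 in WT to 9.57, 8.98, 9.10 and 9.24 in SHIVA livers (log2 difference -1.26, limma adjusted p = 0.0420). Esrrg, a relative of Esrra, read 4.72, 4.75 and 4.97 in WT and was well above background on 0 of 4 SHIVA arrays. It met the filter for testing through the WT arrays, where it was high, so no p is given. Against the background limit of the SHIVA arrays it was lower by at least 2.85-fold, and its second probe was well above background on 2 WT arrays and on 0 SHIVA arrays. At the other end, Nr4a1, an immediate-early receptor induced by glucagon and stress, read 7.54, 6.85 and 10.08 in WT and 10.89, 12.33, 11.18 and 12.49 in SHIVA livers (log2 difference 3.56, limma adjusted p = 0.111). The oestrogen receptor Esr1 was at 0.53 (limma adjusted p = 0.262).

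Of 17 coactivators and corepressors tested, 8 were positive and 9 negative, with a median of -0.13. Crebbp, the acetyltransferase CBP that many nuclear receptors recruit, rose from 9.97, 10.36 and 10.38 in WT to 11.36, 11.10, 11.54 and 11.53 in SHIVA livers (log2 difference 1.14, limma adjusted p = 0.0434). Med1, the Mediator subunit that binds PPARα and PPARγ, was lowest at -1.26 (limma adjusted p = 0.128), with 12.79, 12.54 and 12.92 in WT and 11.82, 11.54, 11.86 and 10.73 in SHIVA livers. Its 3 other probes disagreed with this size, at -0.51, -0.00 and 0.15. The corepressor subunit Hdac3 was at -0.54 (limma adjusted p = 0.368).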

How the data were processed

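Total RNA of 7 livers was labelled with Cy3 and hybridized to single-colour Agilent arrays, 1 array per mouse. The authors deposited, for each array, the Agilent Feature Extraction 10.5.1.1 output, whose processed intensity was detrended within an array and not scaled across arrays. A second deposited file, of quantile-normalized log2 values, ranked spots as their mean signal did (smallest rank correlation 1) and served as an alternative. In R 4.3.3 with limma 3.58.1, uneven or deviant spots were left out, processed intensities were quantile normalized and put on the log2 scale, spots of a probe were averaged, and the brightest probe stood for a gene. Symbols were updated through RefSeq for 26413 probes, and probe positions are those of mm9. Genes well above background on at least 3 of 7 arrays were tested with lmFit and eBayes and called where the adjusted p (Benjamini-Hochberg) was under 0.05, WT (3) against SHIVA (4), without a block.

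The members and gene lists were chosen with earlier results of these data known. All 10 genes and their probes are named. From each list of targets or partners the text names every called gene and the tested genes with the largest positive and negative changes, usually 2 each, and a listed gene that this rule would name is not reported here. A few others, such as Cyp2b10, Cyp3a11, Rxrb, Rxrg, Fabp4 and Saa1, were named after their values were seen. Of 191 listed symbols 190 were found on the arrays. On simulated data with 20002 genes and 200 changed by a log2 value of 2, 90.5% were recovered, 4.74% of calls were unchanged genes, and 0 genes were called where none was changed. Recovery of smaller changes, such as the log2 differences of Nr1i3 (-0.97) and Ppara (-0.67), was not tested. A bound ("at least") compares the bright group's mean with, per dim array, the higher of its own signal and the lowest signal well above background. Motifs were searched in the 250 bases before each start, on both strands. The alternatives were 75th percentile scaling, normexp with an offset of 50, the mean signal, the authors' table, other filters on dim probes, the mean of a gene's probes, single probes, array weights, a replicate block, the methods' t-test, and leaving out each mouse. The number of arrays limits the precision.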

Additional observations from a re-analysis of the deposited data

Results flagged for a closer look

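Each of the 16 probes was searched for a SHIVA liver whose gap to its nearest neighbour took up more of the group's range than Dixon's critical value of 0.829 for 4 samples. This marked 2 probes, where 0.8 would be marked by chance. On the second probe of Nr1h3, from base 1863, SHIVA replicate 1 read 11.83 and the other mutants 11.69 to 11.70, a gap of 0.944 of the range. On the brighter probe of Rxra, SHIVA replicate 2 read 7.97 and the others 8.37 to 8.46, a gap of 0.832 of the range. This is the liver with the high acute phase genes, whose part in the Rxra value was not tested.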

How the results depend on the processing

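The number of members called was 1, Nr1i3, with normexp (log2 fold change -0.91), with the mean signal (-0.92), with the authors' table (-0.91) and with the filter on all 7 arrays (-0.97), and 2 with array weights (Nr1i3 -1.09, Ppara -0.77). The mean signal and the authors' table ranked spots alike and are not separate checks. Over all genes, 142 were called with the mean signal, 129 with the authors' table, 13 with no filter on dim probes, 283 with array weights and 0 with the methods' t-test, which gave 2299 at an unadjusted p under 0.05 where limma gave 2667, against 75 as reported. When single mice were left out, the genes called numbered 3 to 423, the lowest without WT replicate 1 and the highest without WT replicate 3. Members called were between 0 and 1, the log2 fold change of Nr1i3 between -1.06 and -0.89, and PPARα targets lower without overlap between 13 and 24. Rxra turned sign with array weights (0.055), with its probe from base 5208 (0.026), and without WT replicate 3 (0.082) or SHIVA replicate 2 (0.072), over a leave-one-out range of -0.16 to 0.082. Esrra turned sign without WT replicate 2 (0.014) or SHIVA replicate 3 (0.034), over a range of -0.32 to 0.034. The causes were not tested. The other 6 members kept their sign and their side of the threshold under every alternative run. Some list medians changed sign with a mouse left out, with ranges of -0.78 to 1.04 for 4 PPARγ targets, -0.23 to 0.10 for 22 PXR and CAR targets, -0.15 to 0.02 for 17 coregulators and -0.13 to 0.02 for 17 oxidative targets. Others kept their sign but moved, over -0.27 to -0.012 for 14 HNF4α targets and -0.14 to -0.057 for 25 other nuclear receptors.

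Replicate numbers are shared by the groups, yet same-numbered livers deviated together only weakly, with correlations of -0.05, 0.01 and 0.24 for the 3 pairs, so the numbers were not taken to pair the mice. With the replicate block 32 genes were called, 0 of them members, and the log2 fold changes of Nr1i3 and Ppara were -1.06 and -0.69.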
